A study of Homo sapiens with 6 samples.

Results

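The 56 genes described here are named at Alzheimer disease risk loci, the stretches of the genome at which inherited variation is associated with the disease. They were taken from 20033 protein-coding genes of the GENCODE 44 annotation, with APOE, BIN1, CLU, PICALM, CR1, TREM2, MAPT and GAB2 among them. A peak was assigned to a gene when at least 1 nt of it touched the gene body or the 10 kb on either side, a stretch called the window of the gene here. By this rule 41 of the 23953 peaks of the series lay at these genes, and none lay in the windows of 2 of them. The rule uses no measured value, but GAB2, BIN1, CR1, MTHFD1L and PRUNE2 are named by the study from these same peak lists. Any peak at these genes is therefore no independent evidence.

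The cells were SH-SY5Y, a human neuroblastoma line, carrying stably expressed 82-kDa ChAT, the long nuclear form of choline acetyltransferase that humans make from the M-type transcript. All groups were differentiated with retinoic acid for 3 d on 3 plates for each treatment and then received either vehicle (Ham's F-12 medium) or 100 nM Aβ1–42 oligomers for 4 h. Chromatin was precipitated with antibody to 82-kDa ChAT or to SATB1, a chromatin organizer that binds AT-rich DNA at matrix attachment regions, which gave 4 peak lists from a single library each. No spread between replicates exists for any value, no test was made between treatments, and all intervals cover counting error only.

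Risk loci for Alzheimer disease fall into a few kinds of cell biology. APOE, CLU, ABCA7 and ABCA1 carry or export lipid, TREM2, CD33, INPP5D, PLCG2 and the MS4A genes act in microglia, and BIN1, PICALM, CD2AP and RIN3 act in endocytosis. MAPT encodes the microtubule protein tau, which aggregates in neurons in the disease. A gene named at a locus is often the nearest or the most plausible one, and it need not be the gene through which the variant acts. Many of the microglial genes are little used by neuron-like cells, and expression was not measured in these libraries.

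Peaks of different lists shared bases at some sites, and 4 of the 56 genes held such a pair. The pairs of PLCG2 and JAZF1 joined lists of different treatments. Each list comes from a separate library, so shared bases do not show that both proteins were bound there together. How many of all protein-coding genes held such a pair was not counted. Shares of overlapping peaks over the whole lists are given further on. At INPP5D a SATB1 vehicle peak lies wholly within an 82-kDa ChAT vehicle peak. The sequences at the other 3 genes are shown from the plus strand of hg38, with the bases shared by both peaks in capitals. The first is the 82-kDa ChAT peak of PLCG2 after Aβ1–42 at chr16:81795497-81795628, which contains a SATB1 vehicle peak. The second is the SATB1 vehicle peak of JAZF1 at chr7:28165511-28165605, which contains an 82-kDa ChAT peak found after Aβ1–42. The third is the 82-kDa ChAT peak of ICA1 after Aβ1–42 at chr7:8146744-8146910, which contains a SATB1 peak of the same treatment.
PLCG2: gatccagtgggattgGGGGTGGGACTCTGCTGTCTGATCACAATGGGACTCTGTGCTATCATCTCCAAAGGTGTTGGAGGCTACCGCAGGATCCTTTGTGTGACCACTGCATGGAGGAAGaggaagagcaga
JAZF1: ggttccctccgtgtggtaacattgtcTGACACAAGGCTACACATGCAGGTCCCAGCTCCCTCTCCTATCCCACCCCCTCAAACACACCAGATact
ICA1: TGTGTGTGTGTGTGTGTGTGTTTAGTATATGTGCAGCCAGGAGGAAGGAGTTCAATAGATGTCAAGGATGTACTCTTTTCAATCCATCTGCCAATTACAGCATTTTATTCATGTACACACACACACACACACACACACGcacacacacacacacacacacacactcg

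The SATB1 peak of INPP5D was wholly low in complexity, while the PLCG2 and JAZF1 sites had no low-complexity bases. The ICA1 site holds a TG run and a CA run, and 42.5% of the bases of its 82-kDa ChAT peak were low in complexity. Copies with at least 80% identity over at least 80% of the peak were counted in the genome. The SATB1 peak of INPP5D had 56 such copies, whereas the PLCG2, JAZF1 and ICA1 sites were each found once.

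Peaks at the 56 genes were few in every list. The 82-kDa ChAT list after vehicle held 8270 peaks, of which 9 lay at the 56 genes, and the list after Aβ1–42 held 6563 peaks, of which 12 did. SATB1 had 6 of 3065 peaks at these genes after vehicle and 14 of 6055 after Aβ1–42. The windows covered 6.82 Mb, or 0.232% of the 2938 Mb of determined bases on chromosomes 1 to 22, X and Y, and the expected numbers assume that the peaks of a list on these chromosomes are spread evenly by length.

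For 82-kDa ChAT after vehicle, 9 peaks stood against 17.3 expected, a ratio of 0.520 (95% Poisson interval 0.238 to 0.987). After Aβ1–42 the 12 peaks of 82-kDa ChAT stood against 14.7, a ratio of 0.815 (0.421 to 1.42). SATB1 gave 6 peaks against 6.69 after vehicle, a ratio of 0.897 (0.329 to 1.95), and 14 against 13.6 after Aβ1–42, a ratio of 1.03 (0.563 to 1.73). Only the interval of the first ratio lay below 1, by a narrow margin, and the intervals of all 4 lists overlapped one another. With repeats left out of both numbers that ratio was 0.803, and its 9 peaks then stood against 11.2 expected, inside their interval of 4.12 to 17.1. Without the 5 genes that the study named, 82-kDa ChAT had 9 peaks against 14.7 after vehicle and 7 against 12.5 after Aβ1–42, and SATB1 had 6 against 5.67 and 10 against 11.5. Over all lists the 41 peaks compared with 52.3 expected, a ratio of 0.784 (0.562 to 1.06).

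**Figure D1:**
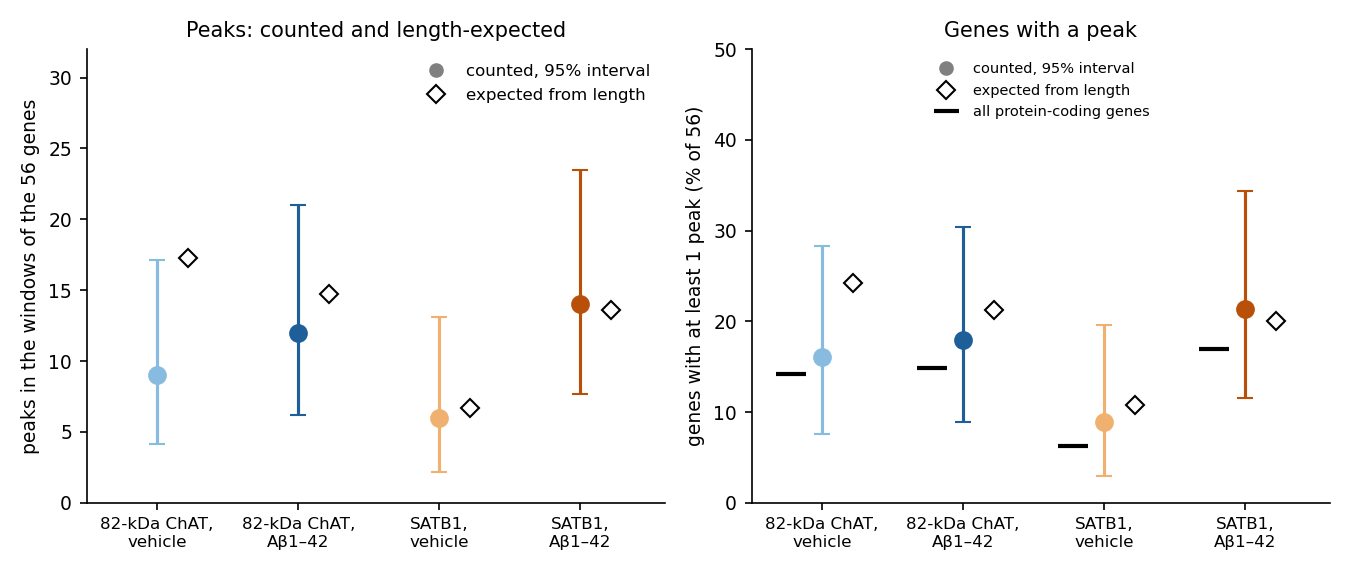
Left, number of peaks in the windows of the 56 genes in each list (filled circles, with 95% Poisson intervals) beside the number expected from length (open diamonds). Right, percent of the 56 genes with at least 1 peak (95% Clopper-Pearson intervals), the percent expected from length, and the percent of all 20033 protein-coding genes (black bars). The counted values lie nearest to the diamonds for SATB1 after Aβ1–42 (14 peaks against 13.6) and farthest below for 82-kDa ChAT after vehicle (9 against 17.3).

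At least 1 peak of 82-kDa ChAT lay at 9 of the 56 genes after vehicle, or 16.1% (95% Clopper-Pearson interval 7.62 to 28.3), beside 14.2% of all protein-coding genes. After Aβ1–42 it was 10 genes, or 17.9% (8.91 to 30.4), beside 14.9%. SATB1 peaks lay at 5 genes after vehicle, or 8.93% (2.96 to 19.6), beside 6.29%, and at 12 genes after Aβ1–42, or 21.4% (11.6 to 34.4), beside 17.0%. Every one of these background shares lay within the interval of the 56 genes. The risk genes are longer than most, with a median window of 87.4 kb beside 47.5 kb for all protein-coding genes, and length alone would give 13.6, 11.9, 6.06 and 11.2 genes with a peak in the same order of lists.

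Taking the lists together, 22 of the 56 genes held a peak, where 28.6 were expected from length, and 34 held none. The 22 genes are 39.3% of the 56 (interval 26.5 to 53.2), and the 51.1% expected from length lies within that interval. The share of all protein-coding genes with a peak in any list was not counted, so 22 genes cannot be called few or many among genes. Of the 22, 11 genes had 1 peak, 5 had 2, 4 had 3 and 2 had 4. JAZF1 was the only one with a peak in all 4 lists, and PLCG2 and ICA1 had peaks in 3. The median window was 169 kb for the 22 genes with a peak and 47.8 kb for the 34 without.

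**Figure D2:**
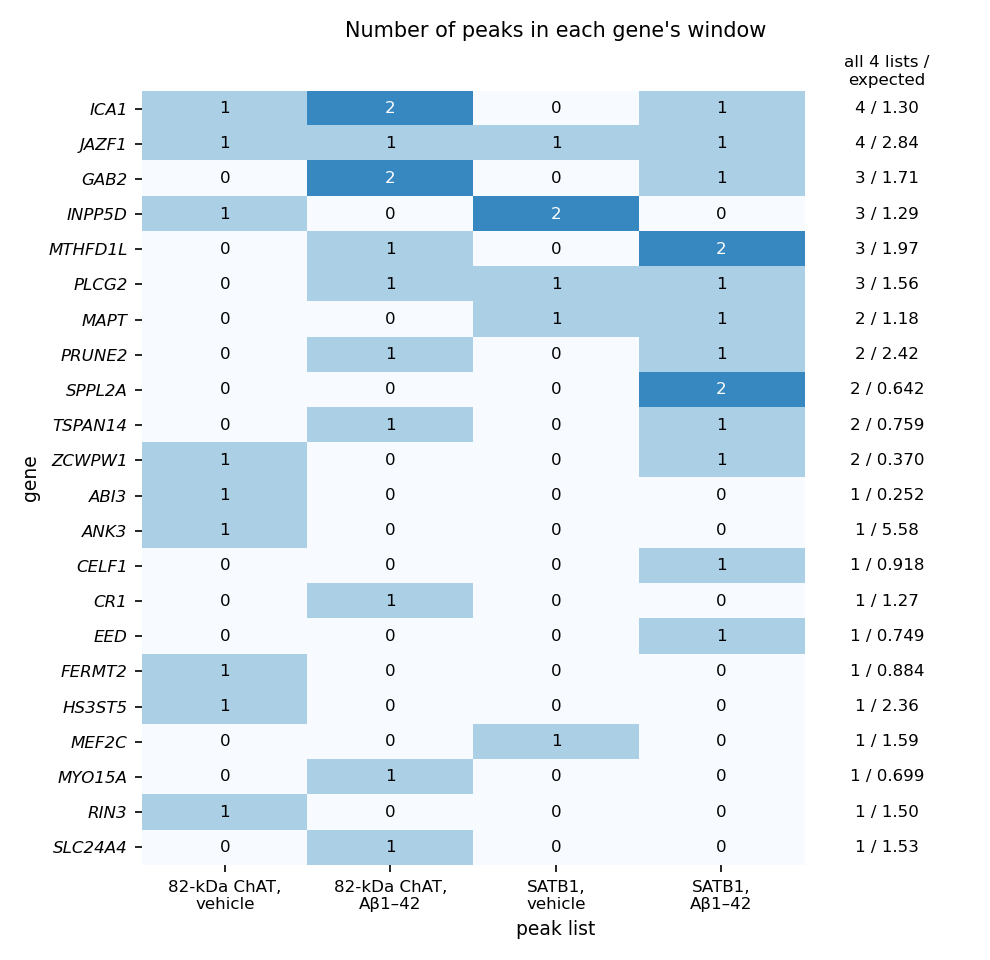
Number of peaks in the window of each of the 22 genes that held any (rows), in each of the 4 lists (columns), with the sum over the lists and the number expected from length at the right. JAZF1 has 1 peak in every list, and ANK3 has 1 peak where its length gives 5.58.

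Peaks lay only in vehicle lists at 7 genes (INPP5D, MEF2C, FERMT2, RIN3, ABI3, ANK3 and HS3ST5) and only in Aβ1–42 lists at 10 (CR1, CELF1, SLC24A4, GAB2, MTHFD1L, PRUNE2, SPPL2A, TSPAN14, MYO15A and EED). ZCWPW1, MAPT, PLCG2, JAZF1 and ICA1 had peaks after both treatments. A vehicle peak lay at 12 genes, where 17.4 were expected from length. Peaks after Aβ1–42 lay at 15 genes, where 19.5 were expected. How many of all protein-coding genes had peaks after only 1 treatment was not counted, so these counts cannot be called few or many. Over the whole lists, from 0.908% to 6.83% of the peaks overlapped a peak of the same protein after the other treatment. The split by treatment is therefore not shown to be particular to these genes. The vehicle lists together gave 15 peaks (interval 8.40 to 24.7), 0.625 of the expected number, and the Aβ1–42 lists gave 26 (interval 17.0 to 38.1) against 28.3, a ratio of 0.918. All 9 peaks of the 5 genes that the study named were in the Aβ1–42 lists, and without these genes the ratios were 0.737 after vehicle (15 peaks, interval of the ratio 0.413 to 1.22) and 0.708 after Aβ1–42 (17 peaks, 0.413 to 1.13). With 1 library on each side the treatment and the library cannot be told apart.

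Both proteins had a peak at the same gene after Aβ1–42 in 7 cases: GAB2, MTHFD1L, PRUNE2, PLCG2, TSPAN14, JAZF1 and ICA1. That is 12.5% of the 56 genes (interval 5.18 to 24.1), beside 4.38% of all protein-coding genes, and 3.57 genes were expected from length. GAB2, MTHFD1L and PRUNE2 belong to the genes that the study named, and without those 5 genes the count was 4 of 51, or 7.84% (interval 2.18 to 18.9), where 2.93 were expected from length. After vehicle the corresponding genes were INPP5D and JAZF1, 2 genes or 3.57% (interval 0.435 to 12.3), beside 2.98% of all genes and 2.26 expected from length. Most of the SATB1 peaks behind the 7 genes lay in repeats, described further on. With Alu-matching, multi-copy and CATTC-rich peaks left out only GAB2 and ICA1 kept both proteins. These are 3.57% of the 56 genes (interval 0.435 to 12.3), beside 1.04% of all genes, and no number expected from length was computed. GAB2 is among the genes that the study named.

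The genes of lipid transport held no peak in any list. These were APOE, the main lipid carrier of the brain, CLU, a secreted chaperone also called apolipoprotein J, and the lipid transporters ABCA7 and ABCA1. Their windows are short, 0.274 Mb in all, and 2.10 peaks were expected over the 4 lists, which lies under the upper limit of 3.69 peaks that a count of 0 allows. The closest peak to APOE lay 12.7 kb downstream of it, just outside the window, and was an Alu-matching SATB1 peak found after Aβ1–42. The same peak was the closest to TOMM40, a pore protein of the mitochondrial outer membrane, at 18.4 kb. For ABCA7 the closest peak lay 39.6 kb away, for CLU 215 kb and for ABCA1 263 kb.

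Among 13 genes of myeloid receptors and immune signalling, 4 held 8 peaks, where 8.39 were expected. INPP5D, whose product SHIP1 dampens signalling at the plasma membrane of blood cells and microglia, had 3 peaks, all after vehicle. Its 82-kDa ChAT peak was 424 nt long with a score of 64.96 and lay in intron 6 of 26, where it enclosed the 230 nt SATB1 peak with a score of 78.11. Scores come from the peak caller and equal minus 10 times the log10 of a p-value. They exceed 50 throughout, and rank peaks within a list only. A further SATB1 peak of 147 nt lay in intron 2 with a score of 65.33 and had a single copy in the genome. For the 3 peaks of INPP5D 1.29 were expected, within the Poisson interval of 0.619 to 8.77.

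PLCG2 encodes phospholipase C gamma 2, a signalling enzyme downstream of TREM2. It had no 82-kDa ChAT peak after vehicle and 1 peak in each of the other lists. In intron 2 of 32, 16.3 kb from the start of the gene, the 132 nt peak of 82-kDa ChAT after Aβ1–42 (score 75.46) covered the whole 105 nt SATB1 peak found after vehicle (score 73.83). The sequence printed above holds a TCCAT and a TCCCAT, read on the minus strand. The study reports these strings as a top motif of the same peak lists. The SATB1 peak found after Aβ1–42 lay at 86.7 kb, in intron 5, with a score of 83.65 and 19 copies in the genome. SATB1 therefore had a peak in PLCG2 after either treatment, but at different sites.

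CR1, the complement receptor 1 gene, held a single peak, for 82-kDa ChAT after Aβ1–42. It lay 8182 nt upstream of the gene, within the neighbouring complement receptor gene CR2, with a length of 149 nt and a score of 72.39. With alternate sequences of the assembly left out, CR1 had the lowest share of 51-mers that occur once in the genome, 67.5% of its window, beside 84.59% for ECHDC3, the next lowest. ABI3, an actin regulator of the WAVE complex, held a single 82-kDa ChAT vehicle peak of 72 nt. It had a score of 130.74, the highest of the 9 peaks of that list here and at the percentile 93.4 of the whole list, and lay 1533 nt upstream of the gene, where 34 nt of it also touched an untranslated part of an exon of GNGT2, a G protein subunit gene. The other 9 genes of the group, TREM2, CD33, MS4A6A, MS4A4A, HLA-DRB1, SCIMP, BLNK, TNIP1 and SHARPIN, held none. TREM2, the lipid-sensing receptor of microglia, lay 114 kb from the closest peak and SHARPIN, a subunit of a ubiquitin ligase, 17.6 kb.

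Endocytosis and membrane traffic was represented by 7 genes, of which RIN3 and TSPAN14 held 3 peaks where 7.05 were expected, within the interval of 0.619 to 8.77. RIN3, an activator of the endosomal GTPase Rab5, had an 82-kDa ChAT vehicle peak of 83 nt in intron 3 with a score of 95.58. TSPAN14 encodes a tetraspanin that helps the protease ADAM10 to mature. Its 82-kDa ChAT peak after Aβ1–42 had a score of 116.84, the highest of the 12 peaks of that list here and at the percentile 96.9 of the whole list, and lay 154 nt beyond the 3′ end of the gene. That peak was wholly low in complexity, with 960 copies counted in the genome, and it holds neither TCCAT nor TCCCAT. A SATB1 peak of the same treatment lay in its intron 1 and matched Alu. BIN1, a membrane-bending protein, held no peak in any list and lay 34.6 kb from the closest, an 82-kDa ChAT vehicle peak. The study nevertheless names BIN1 among the risk genes it identified by ChIP-seq. PICALM, a clathrin assembly protein, also held none, and neither did CD2AP, USP6NL and SNX1.

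Cytoskeleton, adhesion and kinase signalling comprised 8 genes with 8 peaks where 12.5 were expected. GAB2, a docking protein that links receptors to phosphatidylinositol 3-kinase and Ras signalling, had 2 peaks for 82-kDa ChAT and 1 for SATB1, all after Aβ1–42. All 3 lay in intron 1, the first of 9, with the SATB1 peak between the others. The 82-kDa ChAT peak nearer to the gene start had a score of 93.69, the SATB1 peak a score of 68.64 at 67.9 kb from the start and the farther 82-kDa ChAT peak a score of 63.81 at 84.2 kb. For GAB2 1.71 peaks were expected over the 4 lists, within the Poisson interval of 0.619 to 8.77 of its 3. None of the 3 matched Alu, and the nearer 82-kDa ChAT peak had 2 copies in the genome while the others had 1. All of them also lay inside a lncRNA gene that overlaps GAB2.

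Both 82-kDa ChAT peaks of GAB2 are shown with the arms of an inverted repeat in capitals, a run of bases that returns on the opposite strand. The first is at chr11:78366740-78366815, with arms of 14 nt and 20 nt between them, and the second at chr11:78333559-78333668, with arms of 10 nt and 87 nt between them.
GAB2, 82-kDa ChAT, 14 nt arms: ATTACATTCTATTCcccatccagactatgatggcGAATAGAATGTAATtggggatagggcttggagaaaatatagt
GAB2, 82-kDa ChAT, 10 nt arms: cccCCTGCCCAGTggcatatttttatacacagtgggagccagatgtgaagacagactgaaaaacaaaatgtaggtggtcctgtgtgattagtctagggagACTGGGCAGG

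Arms of at least 14 nt were found in 3 of the 41 peaks, the other two being the overlapping peaks of ICA1 with their TG and CA runs. The windows of the 56 genes were divided into 55384 tiles of 123 nt, the median length of the 41 peaks, as a measure of the ordinary sequence there. Of these tiles 0.195% held arms of at least 14 nt and 1.94% arms of at least 10 nt, which 6 of the 41 peaks had. The 6 include both overlapping peaks of ICA1 and an Alu-matching peak of TSPAN14. The peaks ran from 66 to 424 nt in length, unlike the tiles, and the other peaks of the lists were not searched. Whether such arms are usual among peaks is therefore not known. The inverted repeat was sought after the sequences had been seen, and its count is a description.

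MAPT had a SATB1 peak after each treatment and none for 82-kDa ChAT. The vehicle peak of 122 nt lay in intron 1 of 12 with a score of 63.88, and the Aβ1–42 peak of 123 nt in intron 9 with a score of 69.69. The sites were therefore far apart in the gene, and the latter matched Alu. The assembly holds other versions of the MAPT region as alternate sequences. Of its 51-mers 95.87% occur once without them and 2.402% once they are counted, and none of the peaks placed on alternate sequences (204, 98, 61 and 131 in the order of lists used above) matched the MAPT window. ANK3, the gene of ankyrin-G at the axon initial segment, is the longest of the 56 and held 1 peak where 5.58 were expected, just above the interval of 0.0253 to 5.57. That 82-kDa ChAT vehicle peak of 71 nt in intron 7 of 43 was wholly low in complexity, with 15230 copies in the genome and a score of 53.53.

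FERMT2, the integrin activator kindlin-2, had an 82-kDa ChAT vehicle peak of 147 nt with a score of 71.55. In the MANE Select transcript, the reference transcript of a gene, it lay in intron 12 of 14, but it touched exons of a pair of retained-intron transcripts and was counted as exonic and as near a start for that reason. MYO15A, a myosin of the hair cells of the ear, had a 100 nt peak of 82-kDa ChAT after Aβ1–42 in intron 2, likewise inside an exon of a retained-intron transcript, with a score of 76.7. The kinase gene PTK2B, the adhesion scaffold gene CASS4 and the phosphoinositide-binding PLEKHA1 held none, and PLEKHA1 lay 20.9 kb from an Alu-matching SATB1 peak found after Aβ1–42.

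Transcription, chromatin and RNA was the group with the most peaks for its length, 9 at 7 genes where 7.07 were expected, still within the interval of 4.12 to 17.1. JAZF1, a zinc finger protein of a histone acetyltransferase complex, had 4 peaks where 2.84 were expected. The SATB1 vehicle peak of 95 nt (score 75.07) and the 82-kDa ChAT peak of 66 nt after Aβ1–42 (score 110.74, percentile 96.3 of its list) shared 66 nt in intron 1 of 4, at 15.2 kb from the gene start. An 82-kDa ChAT vehicle peak with a score of 53.14 lay in intron 3 at 293 kb. A SATB1 peak after Aβ1–42 with a score of 74.44 lay 3196 nt beyond the 3′ end, inside the neighbouring gene TAX1BP1, and matched Alu. For both proteins the sites in JAZF1 thus differed between treatments.

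ZCWPW1, a reader of histone methylation marks known from meiosis, had 2 peaks where 0.370 were expected, within the interval of 0.242 to 7.22. These were an 82-kDa ChAT vehicle peak with a score of 52.04 in intron 8 of 17 and an Alu-matching SATB1 peak after Aβ1–42 with a score of 77.31 in intron 2. MEF2C, a transcription factor of neurons and microglia, had a SATB1 vehicle peak with a score of 87.45 in intron 1 of 10, the highest of the 6 peaks of that list here. The splicing regulator gene CELF1 and EED, a subunit of Polycomb repressive complex 2, each had an Alu-matching SATB1 peak after Aβ1–42, with scores of 62.62 and 69.08. SPI1, the gene of the myeloid factor PU.1, held no peak and lay 38.5 kb from the closest, a SATB1 vehicle peak, and MAF also held none.

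Among 5 genes of the lysosome and protein turnover only SPPL2A, an intramembrane protease, held peaks, both for SATB1 after Aβ1–42 and both matching Alu, where 1.99 were expected for the group over all lists. One lay in intron 1 of 14 with a score of 77.87, and the other, with a score of 56.56, was the only one of the 41 peaks inside an exon of a MANE Select transcript, the untranslated part of exon 15. The protease genes CTSH and CTSB, the progranulin gene GRN and TMEM106B held none.

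The remaining 12 genes, of mitochondria, metabolism, transport and other functions, held 11 peaks where 13.4 were expected. ICA1, a curved-membrane-binding protein of secretory vesicles, had 4 peaks where 1.30 were expected, within the Poisson interval of 1.09 to 10.2. Its 82-kDa ChAT peaks after Aβ1–42 lay in intron 8 of 13 (score 59.54) and intron 6 (score 65.0), and its 82-kDa ChAT vehicle peak in intron 10 (score 76.91). The SATB1 peak after Aβ1–42, with a score of 54.98, began at the same base as the 82-kDa ChAT peak in intron 8 and covered 83.2% of it. This was the only pair of overlapping peaks of both proteins after Aβ1–42 at the 56 genes.

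MTHFD1L, a mitochondrial enzyme of folate metabolism, had 3 peaks, all after Aβ1–42, where 1.97 were expected. Its 82-kDa ChAT peak of 93 nt (score 66.95) in intron 19 of 27 lay 319 nt from a SATB1 peak (score 77.69), the closest pair of peaks at the 56 genes that did not overlap. A further SATB1 peak with a score of 77.6 lay in intron 15, and both SATB1 peaks matched Alu. The 82-kDa ChAT peak in intron 19, at chr6:150965149-150965241, is shown for its TCCAT, given in capitals.
MTHFD1L, 82-kDa ChAT: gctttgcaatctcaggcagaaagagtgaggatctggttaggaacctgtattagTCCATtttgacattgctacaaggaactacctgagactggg

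PRUNE2 had a peak of each protein after Aβ1–42, where 2.42 were expected over the 4 lists. They lay apart, in intron 6 of 18 for 82-kDa ChAT (score 58.78) and intron 4 for SATB1 (score 58.81), and the latter matched Alu. SLC24A4, a sodium, calcium and potassium exchanger, had an 82-kDa ChAT peak of 76 nt after Aβ1–42 in intron 2 with a score of 83.06, at chr14:92374492-92374567. It is shown because it begins with TCCAT in tandem, given in capitals.
SLC24A4: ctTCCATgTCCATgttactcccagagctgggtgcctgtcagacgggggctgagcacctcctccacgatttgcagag

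HS3ST5, a sulfotransferase of heparan sulfate, had an 82-kDa ChAT vehicle peak of 216 nt with a score of 54.87 in intron 1, where 2.36 peaks were expected over the lists. TOMM40, NME8, ECHDC3, ADAMTS1, IQCK, RASGEF1C and DOC2A held no peak in any list. As a group the 34 genes without a peak had 19.3 expected over the 4 lists, with a range of windows from 23.6 to 171 kb.

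**Figure D3:**
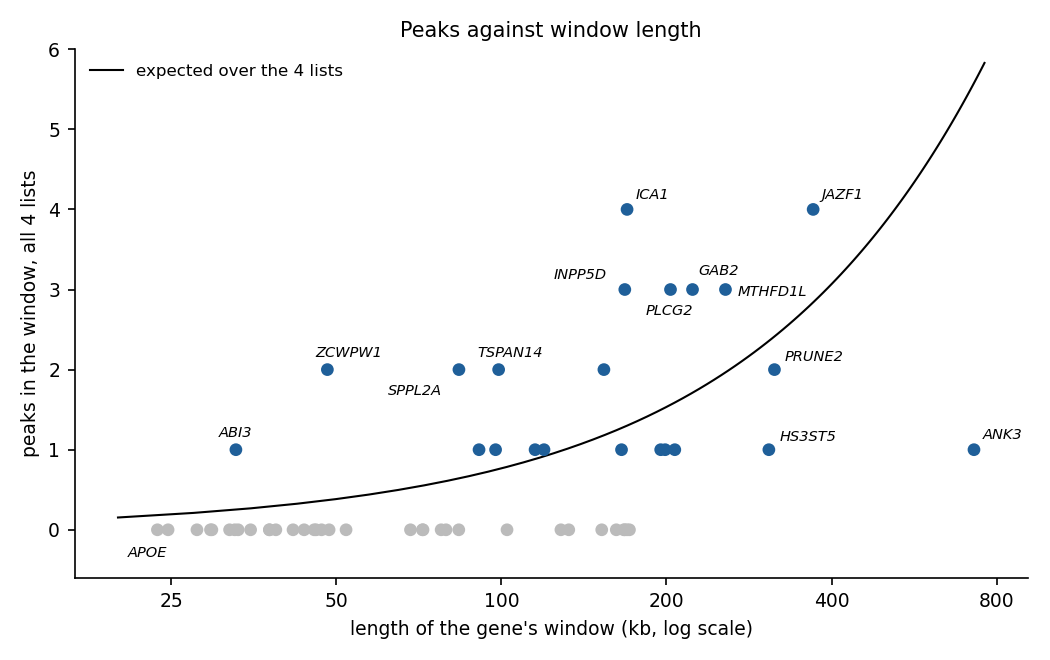
Number of peaks over the 4 lists (vertical axis) against the length of the gene's window in kb on a log scale (horizontal axis) for the 56 genes, with the number expected from length as a line. Genes without a peak, in grey, are at most 171 kb in window length. ICA1, with 4 peaks, lies above the line at 1.30, and ANK3, with 1 peak, far below it at 5.58.

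By position, 34 of the 41 peaks (82.9%) lay in introns, where 76.9% of the bases of the windows lie, and 3 (7.32%) touched an exon, beside 6.76% of the bases. A further 2 lay upstream and 2 downstream of the genes. The 2000 nt upstream of any annotated start held 2 peaks, at ABI3 and FERMT2, both of 82-kDa ChAT after vehicle. These were 4.88% of the peaks, beside 8.87% of the window bases and 7.33% of the peaks in the windows of all protein-coding genes. Of the 36 peaks inside introns of MANE Select transcripts, 11 lay in intron 1 (30.6%, interval 16.3 to 48.1), which holds 29.4% of the intron bases. Positions along the genes therefore differed little from the composition of the windows.

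**Figure D4:**
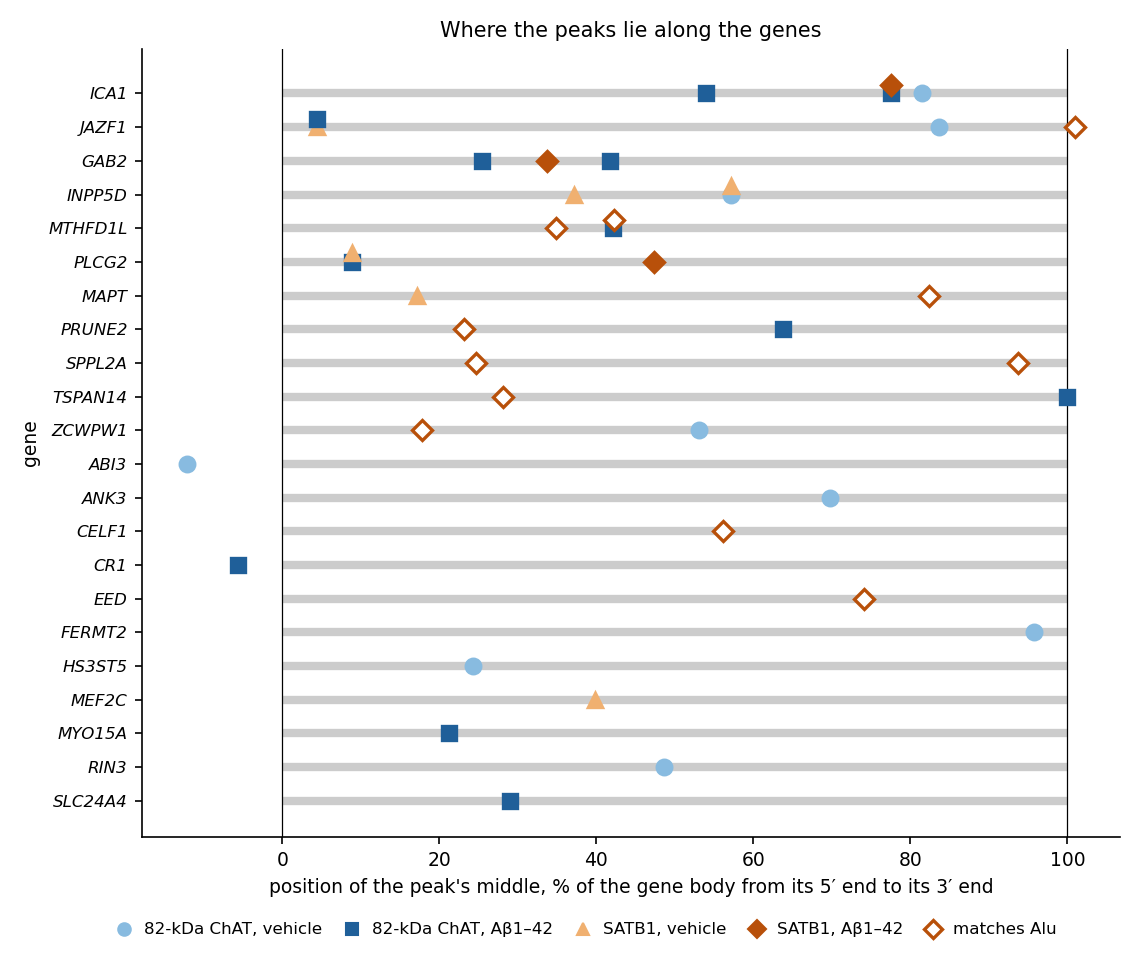
Position of each of the 41 peaks along its gene, in percent of the gene body from the 5′ end (0) to the 3′ end (100), for the 22 genes with a peak. Colour and shape give the list, and open symbols match Alu. Overlapping peaks at ICA1, JAZF1, INPP5D and PLCG2 and the close pair at MTHFD1L are drawn slightly apart, and the peaks of ABI3 and CR1 lie upstream of the genes.

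The 4 peaks closest to the limit of 10 kb on the inside were those of CR1 at 8182 nt, JAZF1 at 3196 nt, ABI3 at 1533 nt and TSPAN14 at 154 nt from the gene, and all others lay within gene bodies. Just outside lay those at APOE, SHARPIN and TOMM40, at 12.7, 17.6 and 18.4 kb.

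Repeat content differed most between SATB1 after Aβ1–42 and the other lists. Alu is a short primate repeat with very many copies, and a peak was called Alu-matching when blastn aligned it to an Alu copy at an e-value of 1e-05. Of the 14 SATB1 peaks after Aβ1–42, 11 matched Alu (78.6%, interval 49.2 to 95.3), at ZCWPW1, CELF1, PRUNE2, MAPT, TSPAN14, JAZF1 and EED and at 2 sites each in MTHFD1L and SPPL2A. None of the 9 and 12 peaks of 82-kDa ChAT and none of the 6 SATB1 vehicle peaks did, with upper limits of 33.6%, 26.5% and 45.9%. These shares followed the whole lists, in which 74.0% of the SATB1 peaks after Aβ1–42 matched Alu and 4.63%, 9.39% and 4.96% of the peaks in the other 3 lists, in the same order. In the windows of the 56 genes 12.4% of the tiles matched. With the 7SL RNA gene as the query instead, the share at the 56 genes was 57.1% for SATB1 after Aβ1–42. It was 0% in the other 3 lists. The whole-list shares rest on the APP copy only, and how far they depend on that query was not tested.

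**Figure D5:**
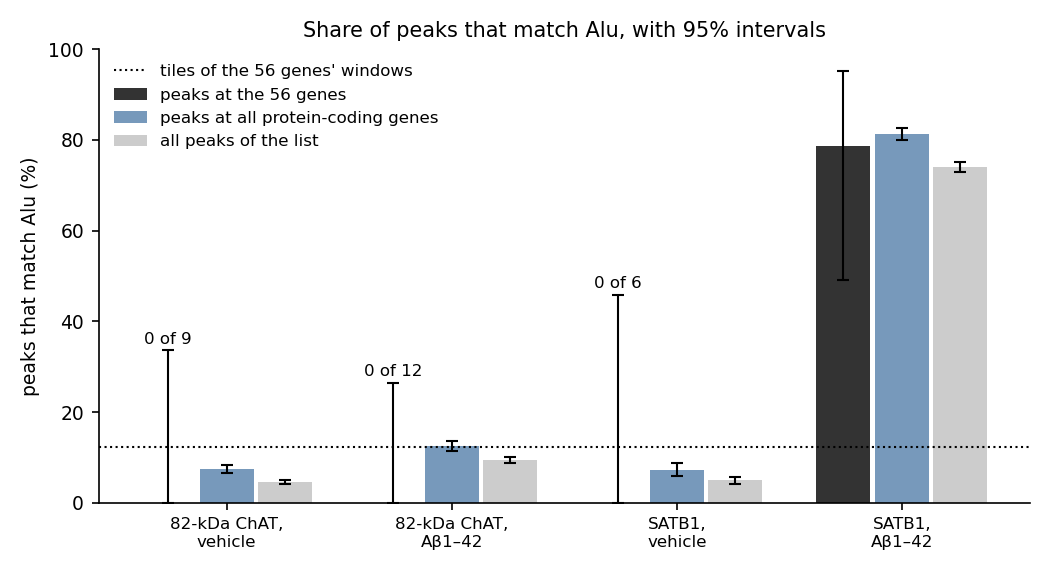
Percent of peaks that match the Alu copy from APP in each list, with 95% Clopper-Pearson intervals. Shares are given for the peaks at the 56 genes, the peaks at all protein-coding genes and all peaks of the list. The dotted line is the share of 123 nt tiles of the 56 genes' windows, 12.4%. SATB1 after Aβ1–42 reaches 78.6% at the 56 genes and 74.0% in the whole list, while the other lists have no Alu-matching peak at the 56 genes.

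The 11 peaks were 80.9% to 92.9% identical to the Alu copy used, 3 in the orientation of their gene and 8 against it. No part of the copy was covered by all of them, and the parts covered by the most, 7 peaks, ran from base 209 to 224 and from base 228 to 237 of the copy. The 3 SATB1 peaks after Aβ1–42 without Alu were those of GAB2, PLCG2 and ICA1, and that of PLCG2 was multi-copy, with 85.7% of its 51-mers found more than once. The authors mapped the reads with repeat-masking, and the part of mapping in the Alu share was not tested.

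Outside Alu, 30 of the 41 peaks remained. Of these 23 had a single copy in the genome, 3 had 2 or 3 copies, and 4 had more, at INPP5D, TSPAN14, ANK3 and PLCG2. No peak reached 3 CATTC pentamers for each 100 nt, a mark of satellite sequence, which 19.5% of the whole 82-kDa ChAT vehicle list did, but only 1.06% of that list's peaks at protein-coding genes. Low-complexity sequence made up most of the bases in 4 peaks, a pair at INPP5D and those at ANK3 and TSPAN14, or 9.76% beside 1.62% of the tiles. Among peaks at all protein-coding genes the share was 17.0% and 10.1% for 82-kDa ChAT after vehicle and Aβ1–42 and 11.3% and 3.06% for SATB1, so a share of this size is usual among peaks.

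Median AT content was no higher in the peaks than in the tiles, which cover the windows of all 56 genes. The median was 50.3% over the 41 peaks, from 34.1% for PLCG2 to 81.7% for ANK3, beside 57.7% over the tiles. It differed by list, with 57.3% and 50.6% for 82-kDa ChAT after vehicle and Aβ1–42 and 51.1% and 49.8% for SATB1. TCCAT or TCCCAT, searched on both strands, occurred in 15 of 41 peaks (36.6%, interval 22.1 to 53.1), beside 30.1% of the tiles. The study found this motif in the same peak lists, so its share in them is no independent evidence. For 82-kDa ChAT after Aβ1–42 it was 7 of 12 peaks (58.3%, interval 27.7 to 84.8), beside 31.7% of that whole list. Among that list's peaks at protein-coding genes the share was 28.3%. For 82-kDa ChAT after vehicle it was 2 of 9 (22.2%), beside 43.6% of the whole list and 30.9% of its peaks at protein-coding genes. Each of these list shares lay within the interval of the peaks at the 56 genes. A C with 3 A or T bases on either side, a pattern given for SATB1, occurred in 24 of 41 peaks (58.5%, interval 42.1 to 73.7), beside 70.3% of the tiles. A match describes letters only and is no evidence of binding.

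Overlap between lists at the 56 genes joined different treatments as often as the same one. PLCG2 and JAZF1 joined SATB1 after vehicle with 82-kDa ChAT after Aβ1–42, so that 2 of 6 SATB1 vehicle peaks overlapped that list (33.3%, interval 4.33 to 77.7), beside 4.80% of the whole SATB1 vehicle list. Read the other way, 2 of 12 82-kDa ChAT peaks after Aβ1–42 did (16.7%, interval 2.09 to 48.4), beside 2.27%. INPP5D was the only overlap after vehicle, 1 of 6 SATB1 peaks (16.7%) and 1 of 9 82-kDa ChAT peaks (11.1%), beside 24.6% and 9.35% of the lists. ICA1 was the only one after Aβ1–42, 1 of 14 SATB1 peaks (7.14%) and 1 of 12 82-kDa ChAT peaks (8.33%), beside 3.95% and 3.76%. Over the whole lists the proteins thus overlapped most within vehicle. No peak of 82-kDa ChAT was shared between treatments (0 of 9 and 0 of 12, beside 5.59% and 6.83% of the lists), and none of SATB1 (0 of 6 and 0 of 14, beside 1.89% and 0.908%).

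A further list of 32 genes also named at risk loci, among them SORL1, ADAM17, WWOX, EFNA5, MAGI2 and CNTNAP2, was counted in the same way. ADAM17, EFNA5 and MAGI2 are also named by the study from these peak lists. The 32 genes held 68 peaks where 66.1 were expected (interval 52.8 to 86.2). At least 1 peak lay at 16 of them, and no matching share of all protein-coding genes was counted. In the order of the lists used above, the peaks of the 32 genes numbered 22, 17, 7 and 22 against 21.9, 18.6, 8.45 and 17.2 expected. CNTNAP2, a very long gene of axonal adhesion, held 24 of them against 17.8 expected, 13 for SATB1 after Aβ1–42, and the synaptic scaffold gene MAGI2 held 14 against 11.2. EFNA5, an ephrin ligand of axon guidance, had 1 peak in every list, 4 in all against 2.41. SORL1, a sorting receptor for amyloid precursor protein, had 1 peak, of 82-kDa ChAT after vehicle, against 1.55 expected.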

How the data were processed

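ChIP-seq of 82-kDa ChAT and SATB1 was analysed from 4 peak lists, 1 for each protein and treatment. The 2 input libraries were not analysed here. The authors mapped reads to hg38 with BWA (build and tool per the submitters' processing notes, version not given in the sources used here) and repeat-masking. MACS was run with a threshold of 1e-05, and regions also called in the input were discarded. Each deposited peak carries a score, equal to minus 10 times the log10 of a p-value. Library depths are unknown here, and the study describes its reads in conflicting ways.

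Members and lists were chosen with earlier results of these data known. Expected numbers are the density of peaks over chromosomes 1 to 22, X and Y times window length, without random placement. Intervals are exact Poisson or Clopper-Pearson intervals at 95%. Genes named in full were those with peaks in at least 3 lists, peaks of both proteins after 1 treatment, the 10 with most peaks, exonic or promoter (2000 nt) peaks, or peaks within 200 nt of another list's, those the study names, and 6 well-known ones. Repeats could not be read from the reference, which is all upper case. Instead, matches to Alu (blastn 2.17.0), 51-mers found more than once (multi-copy when over 50%), CATTC pentamers, low complexity (dustmasker) and copies in the genome were used. GENCODE 44, Python 3.11.15, numpy 2.4.6, scipy 1.17.1, pysam 0.24.0 and numba 0.67.0 were used. All 7 checks on simulated data passed. Alternatives covered the window, score, density, midpoint and repeats, and 1 added after seeing the data left out the 5 genes named by the study.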

Additional observations from a re-analysis of the deposited data

How the results depend on the processing

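Ratios of counted to expected peaks stayed within the main interval of their list under all 8 alternatives for each, one of which, leaving out the 5 genes that the study named, was chosen after seeing the data. They ranged from 0.471 to 0.803 for 82-kDa ChAT after vehicle, from 0.561 to 1.34 after Aβ1–42, from 0.830 to 1.46 for SATB1 after vehicle and from 0.868 to 1.46 after Aβ1–42. The Alu-matching share was 0% in the other 3 lists under all alternatives and between 57.1% (7SL RNA gene as the query) and 80% (without the genes the study named) for SATB1 after Aβ1–42. Of 24 counts of genes with a peak, 6 moved by more than 1.5 times. With 50 kb on either side, 18 genes had an 82-kDa ChAT peak after Aβ1–42 (10 before), 20 a SATB1 peak after Aβ1–42 (12) and 8 a SATB1 peak after vehicle (5), since the windows are longer. With scores at or above the list median, 4 genes had an 82-kDa ChAT peak after vehicle (9). Without Alu-matching, multi-copy and CATTC-rich peaks, 2 genes had a SATB1 peak after Aβ1–42 (12). Without the genes the study named, 6 genes had an 82-kDa ChAT peak after Aβ1–42 (10), since fewer genes are counted. The planned share of soft-masked bases was not run. No paired analysis was possible because each group has 1 library. Counts this small, from 6 to 14 peaks, limit every ratio.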

Other observations

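Of the closest peaks to the 34 genes, those of SCIMP, CD2AP, ECHDC3, RASGEF1C, BLNK, CD33, IQCK, DOC2A and USP6NL lay between 22.1 and 47.9 kb away, those of CTSB, PICALM, ADAMTS1, CASS4, SNX1 and MS4A4A between 49.4 and 96.5 kb, and those of CTSH, NME8, HLA-DRB1, TNIP1, GRN, TMEM106B, MAF, PTK2B and MS4A6A between 105 and 230 kb. The closest peak to TREM2 lay inside TREM1, a neighbouring receptor gene of myeloid cells, and was an 82-kDa ChAT peak of 71 nt after Aβ1–42 with a score of 66.95. The closest to SPI1 lay inside MADD, and the closest to CTSH inside MORF4L1. MS4A4A and MS4A6A shared their closest peak, inside MS4A14.

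Scores reached the list median in 28 of the 41 peaks, 4 of 9 for 82-kDa ChAT after vehicle, 10 of 12 after Aβ1–42, 4 of 6 for SATB1 after vehicle and 10 of 14 after Aβ1–42. The 3 highest 82-kDa ChAT scores after Aβ1–42 were those of TSPAN14 (116.84), JAZF1 (110.74) and GAB2 (93.69).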
